A study of Homo sapiens with 120 samples.

Results

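RNA was compared between 2 edited lines of the human embryonic stem cell line H1 while both were driven towards definitive endoderm for 5 days. The first is a knockout (KO) of the long non-coding RNA gene LNCPRESS1. The second, ΔATG, is named for the loss of the start codon of lncPRESS1. The members are the libraries titled for KO or ΔATG on days 1 to 5 of the endoderm protocol, which are 20 of the 120 libraries of the series, 2 for each line and day. The 10 unedited (WT) libraries of the same days place both lines against the parent. Cells were plated singly on Matrigel with a ROCK inhibitor on day 0, received the kit supplements MR and CJ on day 1, and CJ alone from day 2. The same lines were also sampled at day 0 and in protocols for mesoderm (BMP4) and neuroectoderm (SMADi), which serve below as a comparison. The sources used here give neither the number of clones behind each line nor the bases the knockout lacks, so the edit and the clone cannot be told apart. Nothing says that the 2 libraries of a group came from separate cultures, and p-values then measure only the spread between these libraries, which may be technical.

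Definitive endoderm is the germ layer that gives rise to gut, liver, pancreas and lung. In culture, strong Nodal and Activin signals take stem cells through a state like the primitive streak, marked by TBXT, MIXL1 and EOMES, from which BMP signals lead towards mesoderm. The stem cell factors POU5F1, NANOG and SOX2 are then shut down while SOX17, FOXA2, GATA4, GATA6 and CXCR4 rise.

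The 20 libraries held between 42961097 and 66853493 estimated counts each. Levels are given as CPM, counts normalised to the scaled library total. A difference is given as log2 fold change, ΔATG minus KO, with its standard error after ±, and was called at a Benjamini-Hochberg adjusted p under 0.05 from edgeR's quasi-likelihood F test over 25821 genes. Both lines expressed the markers of the tissue: the 9 markers of definitive endoderm summed to between 1241 and 2494 CPM on day 1, and to 14850 and 14888 CPM in KO and 9839 and 10635 CPM in ΔATG on day 5. The 6 stem cell markers summed to between 1290 and 3463 CPM over the 20 libraries. Among markers of other cells, SOX1, TBX5, GATA1, HBZ, DCN, COL3A1, TTR, AFP, SERPINA1, TFAP2B, VTCN1 and CGA stayed under 1 CPM in each of the 20 libraries. Other markers of those cells were expressed. Fibroblast markers summed to between 126 and 477 CPM in KO and between 147 and 480 CPM in ΔATG. Nearly all of this was COL1A1, since LUM did not pass 1.94 CPM and POSTN did not pass 1.46 CPM in these libraries. The highest sums in KO and ΔATG were 147 and 156 CPM for visceral endoderm, 65.8 and 57.9 CPM for neuroectoderm, and 375 and 413 CPM for mesoderm. Most of the visceral endoderm sum was APOA1, as APOB reached at most 4.98 CPM in KO and 9.84 CPM in ΔATG. In such bulk libraries, fewer cells of a type and less RNA per cell cannot be told apart.

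The edited gene itself was nearly silent in endoderm and so does not check the labels there. LNCPRESS1 (ENSG00000232301, chromosome 7:101299578-101301346 in GRCh38) stood at 1.64 and 1.88 CPM on day 1 in KO and at 1.84 and 1.62 CPM in ΔATG. By day 5 it was listed at 0 in both KO libraries and at 0 and 0.11 CPM in ΔATG. WT fell likewise, from 1.65 and 1.05 CPM to 0 and 0.038 CPM. Over the 5 days the difference between ΔATG and KO was not called (1.5 ± 0.85, adjusted p = 0.24), though the DESeq2 Wald test called it (1.36, 0.0024). At day 0, before the protocol, the gene had stood at 13.2 and 5.6 CPM in KO, at 53.1 and 35.2 CPM in ΔATG, and at 21.4 and 40.6 CPM in WT, so the KO libraries lay lowest there without being empty. EMSLR, the neighbouring RNA gene at chromosome 7:101308346-101310985, differed on each of the 5 days. It fell from 12 and 13.9 CPM on day 1 to 2.75 and 2.33 CPM on day 5 in KO, and from 21.2 and 18.5 to 4.94 and 5.17 CPM in ΔATG. ΔATG lay above KO in every pair of groups, by 0.88 ± 0.08 over the 5 days (adjusted p = 3.2e-12).

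Over the 5 days 4741 genes were called, 18.4% of those tested: 2250 were higher in ΔATG (8.71%) and 2491 lower (9.65%). Most differences were small, and 362 of the called genes changed by at least a log2 of 1, 228 of them higher and 134 lower. Taken singly, day 1 gave 1033 genes (4%), day 2 gave 1427 (5.53%), day 3 gave 2275 (8.81%, with 4.19% higher and 4.62% lower), day 4 gave 1724 (6.68%) and day 5 gave 1826 (7.07%). With 2 libraries a group, these daily counts fell when 1 of the day's own 4 libraries was left out. The daily counts fell least without the second ΔATG library of day 2 or the first KO library of day 4. In both groups the replicates differed most relative to counting noise. They came to between 378 and 630 on day 1, 956 and 1210 on day 3 and 735 and 1147 on day 5. On day 2 they came to 720 and 864 without a KO library and 578 without the first ΔATG library, and on day 4 to 771 and 1115 without a ΔATG library and 699 without the second KO library. The count over all 5 days stayed between 4014 and 4616. Of 5307 genes called on any day, 3408 were called on a single day, and 62 were called on all 5 days with the same sign. In simulated counts, 100 of 25594 genes were given a log2 change of 0.5 and another 100 a change of 1. All were among genes expressed in KO endoderm. The fit recovered 15% of the changes of 0.5 and 62% of those of 1 on day 3, with 17 unchanged genes called. Over the 5 days it recovered 77% and 96%, with 6 unchanged genes called. Far more genes were called in the data than were changed here, which alters the threshold, so these shares may not carry over. A gene not called on a given day may still differ on that day. In 2047 genes (7.93%) the size of the difference depended on the day. Against WT, with which both share the 10 libraries, KO differed in 3820 genes (14.8%) and ΔATG in 8738 (33.8%).

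**Figure D1:**
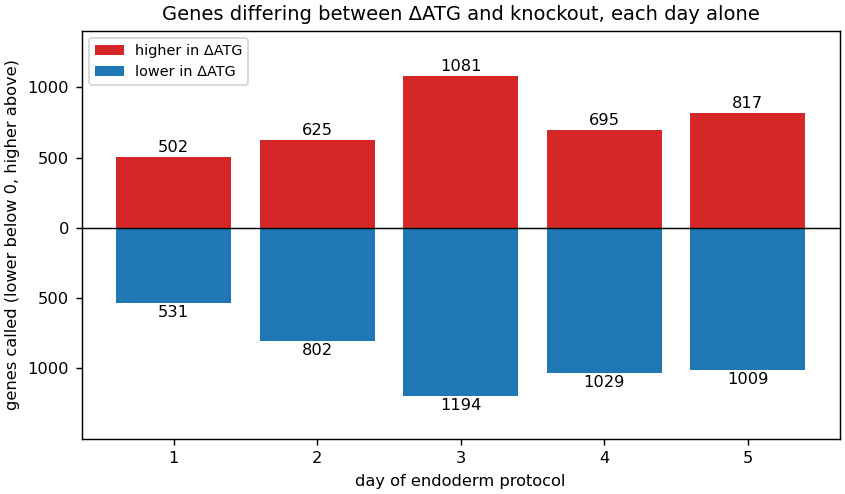
Number of genes called between ΔATG and KO on each day of the endoderm protocol, with genes higher in ΔATG drawn above 0 and genes lower drawn below. Day 3 has the most calls, 1081 higher and 1194 lower, and day 1 the fewest, 502 and 531.

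Stem cell factors stayed higher in ΔATG as endoderm formed. Of 32 tested genes of the pluripotency list, 11 were higher in ΔATG and 2 lower, beside 8.71% and 9.65% of all genes, with a median of 0.07 beside 0.02 for all genes. The same 2 shares stand beside each later list count of ΔATG against KO over the 5 endoderm days. POU5F1, the core factor of the stem cell state, fell in KO from 1212 and 1225 CPM on day 1 through 522 and 483, 128 and 132, and 34.4 and 30.7, to 18.1 and 19.1 CPM on day 5. In ΔATG it went from 1381 and 1337 CPM through 692 and 665, 209 and 218, and 81.1 and 82.2, to 41.9 and 41.8 CPM. Both lines lost it, and both ΔATG libraries lay above both KO libraries on each day. The difference was not called on day 1 (0.16, adjusted p = 0.37), reached 1.33 on day 4 (2.2e-17) and was 0.76 ± 0.04 over all days (9.1e-23). WT ended lowest, at 8.7 and 8.43 CPM on day 5.

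SOX2, which pairs with POU5F1 in stem cells and later marks neural tissue and foregut, showed the largest log2 fold change of the called members. KO libraries held 6.18 and 6.54 CPM on day 1, then 0.871 and 0.641, 0.504 and 0.771, 0.204 and 0.265, and 0.326 and 0.237. ΔATG libraries held 7 and 7.23 CPM on day 1, then 2.9 and 2.89, 3.28 and 3.66, 2.22 and 2.89, and 1.5 and 1.18. The difference was not called on day 1 (0.16, adjusted p = 0.67) and was called on each later day, with no overlap (2.05 ± 0.12 over all days, adjusted p = 1.7e-20), though the levels were low throughout. In WT SOX2 still stood at 3.62 and 3.17 CPM on day 2 and then fell to 0.0998 and 0.114 CPM. FOXD3, a repressor of early differentiation, was 1.71 ± 0.22 higher (2e-08) at levels of at most 2.02 CPM. NANOG, another core factor, was 0.72 ± 0.14 higher (0.00013), with 2.35 and 1.85 CPM in KO against 3.98 and 8.78 CPM in ΔATG on day 5, when its level was low. Its median over the 10 libraries of a line was 35.4 CPM in KO and 35.5 CPM in ΔATG. ESRG, THY1, USP44, ZSCAN10 and TERF1 were also higher, by 0.66, 0.53, 0.45, 0.35 and 0.27. The 6 stem cell markers summed to 1329 and 1381 CPM in KO and 1290 and 1332 CPM in ΔATG on day 5. POU5F1, NANOG and SOX2 made up little of these sums, most of which came from PRDM14, DPPA4 and LIN28A. PODXL, a surface glycoprotein, was among the members that were lower (-0.35).

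Some genes of early mesoderm were lower in ΔATG. Of 29 tested genes of lateral and cardiac mesoderm, 9 were lower and 0 higher over the 5 days, with a median of -0.23. On day 5 alone 2 were lower and 3 higher, beside 3.91% and 3.16% of all genes. The summed level of 6 mesoderm markers was not lower throughout. It was 182 and 221 CPM in KO and 169 and 174 CPM in ΔATG on day 1, 338 and 375 CPM against 413 and 365 CPM on day 2, 37 and 37.3 CPM against 42 and 46.4 CPM on day 3, and 26.8 and 26 CPM against 20.6 and 20.4 CPM on day 5. HAND1, a factor of lateral mesoderm and heart, peaked on day 2. KO libraries held 1.68 and 1.33 CPM on day 1, then 16.9 and 17.6, 1.43 and 1.27, 0.634 and 0.829, and 0.143 and 0.158. ΔATG libraries held 0.135 and 0.229 CPM on day 1, then 3.04 and 2.51, 0.253 and 0.258, 0.0975 and 0.0206, and 0.016 and 0.0736. All ΔATG values lay under the KO values of the same day, and WT was highest, with 24 and 31.8 CPM on day 2. The difference was -2.67 ± 0.39 over all days (adjusted p = 2.7e-07) and -2.63 on day 2 (1.2e-14).

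MESP1, which marks the first mesoderm leaving the streak, stood at 41.5 and 46.2 CPM in KO on day 1 and at 7.11 and 8.96 CPM in ΔATG. On day 2 it had fallen to 6.15 and 6.65 CPM in KO and to 2.31 and 2.24 CPM in ΔATG, and after that it was under 1 CPM in both edited lines. The ΔATG libraries were low from the first day (-1.78 ± 0.39, adjusted p = 0.00049), and WT was above both with 87.7 and 61.4 CPM on day 1. NKX2-5, a heart factor, did not exceed 0.708 CPM in KO or 0.0959 CPM in ΔATG (-2.23 ± 0.52, 0.00096). ACTC1, cardiac actin, rose late to 365 and 335 CPM on day 5 in KO and to 121 and 119 CPM in ΔATG (-0.90 ± 0.05, 2.2e-20). TBX20 and MYL4 were lower over all days by -0.60 and -0.61. PDGFRA, a growth factor receptor of early mesoderm, was lower over all days (-0.34 ± 0.10, 0.012) and on day 1, with 42.8 and 50.2 CPM in KO and 11 and 16.6 CPM in ΔATG (-1.74, 2e-07). At its peak on day 2 it stood at 197 and 223 CPM in KO and 317 and 257 CPM in ΔATG, which was not called (0.45, 0.24). The NKX2-5 call was lost without the first KO library of day 3 (-1.98, 0.066). The TBX20 call was lost without the second KO library of day 1 (-0.56, 0.13) or either ΔATG library of that day (adjusted p = 0.051 and 0.063), and the MYL4 call without any of 5 libraries (adjusted p = 0.052 to 0.25), with the replicate block (-0.61, 0.099) or without the filter on low counts (-0.61, 0.059).

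The streak itself was less one-sided. Of 22 primitive streak genes, 5 were higher in ΔATG and 6 lower over the 5 days, while on day 1 alone 10 were lower and 0 higher, beside 2.06% and 1.94% of all genes on that day. TBXT, the founding streak factor, was expressed almost only on day 1, at 327 and 326 CPM in KO and 245 and 249 CPM in ΔATG. That day's difference was not called (-0.40, adjusted p = 0.12). Later, at under 8 CPM, ΔATG stood somewhat higher, and the mean over days was 0.37 ± 0.12 (0.021). MIXL1 fell from 2242 and 2323 CPM to 162 and 149 CPM in KO and from 1913 and 1999 to 165 and 150 CPM in ΔATG (-0.19 ± 0.08, 0.069). EOMES peaked on day 2 at 1026 and 1074 CPM in KO and at 1067 and 1017 CPM in ΔATG (-0.08 ± 0.05, 0.31). GSC, a factor of the anterior streak, reached 310 and 300 CPM in KO on day 5 and 219 and 208 CPM in ΔATG (-0.19 ± 0.05 over all days, 0.0086). APLNR, the apelin receptor of early mesoderm, was -0.90 lower, and RIPPLY2 was called higher at levels that never passed 0.581 CPM, a call lost without the first ΔATG library of day 4 (2.41, adjusted p = 1). The TBXT call was lost without the second KO library of day 4 (0.28, 0.12), the first ΔATG library of day 4 (0.35, 0.052) or the first KO library of day 5 (0.32, 0.068), with the replicate block (0.37, 0.053) and by limma voom (0.39, 0.064). GSC was not called by the DESeq2 Wald test (-0.19, 0.06). MIXL1 and EOMES were called in a fit to the 20 compared libraries alone (-0.19 and -0.08, adjusted p = 5.9e-05 and 0.0062), and MIXL1 also with the replicate block (0.013), by limma voom (0.0055) and with a stricter filter (0.045).

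Among genes of definitive endoderm, more were lower than higher in ΔATG, and the gap was widest at the start. Of 34 tested, 15 were lower and 4 higher, with a median of -0.16. On day 1 alone 11 were lower and 1 higher, beside 2.06% and 1.94% of all genes. SOX17, the factor that defines the layer, was barely on at day 1, with 1.47 and 3.05 CPM in KO and 0.292 and 0.37 CPM in ΔATG. By day 2 it had risen to 635 and 611 CPM in KO and to 701 and 718 CPM in ΔATG. It ended at 416 and 403 CPM in KO and at 359 and 354 CPM in ΔATG. The call over all days (-0.58 ± 0.12, adjusted p = 0.00026) goes with the call on day 1 (-2.75, 9.6e-05), and no later day was called. On day 1 WT, at 0.916 and 1.07 CPM, lay between the lines.

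GATA4, a zinc finger factor of endoderm and heart, was lower on every day. KO libraries held 39.7 and 43.3 CPM on day 1, then 158 and 154, 388 and 376, 481 and 476, and 559 and 546. ΔATG libraries held 19.5 and 23.5 CPM on day 1, then 75 and 90.2, 285 and 296, 412 and 414, and 480 and 467. The groups of a day never overlapped, but the gap closed with time: -0.94 and -0.92 on days 1 and 2 were called, and -0.21 and -0.22 on days 4 and 5 were not. Over all days it was -0.54 ± 0.07 (adjusted p = 9.8e-09). GATA6, its relative, was called lower on day 1 (139 and 164 CPM against 271 and 286 CPM in KO, -0.88) and on no later day.

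CER1, a secreted antagonist of Nodal, BMP and Wnt made by anterior endoderm, was among the most abundant transcripts. It stood at 1936 and 2104 CPM on day 1 and 11232 and 11425 CPM on day 5 in KO, and at 1007 and 1230 CPM and 7536 and 6778 CPM in ΔATG (-0.51 ± 0.07, adjusted p = 6.9e-08). It makes up most of the lower sum of endoderm markers in ΔATG on day 5. LGR5, a receptor of R-spondins, rose later in ΔATG. On day 2 it was at 15.5 and 16.5 CPM in KO and at 1.88 and 1.93 CPM in ΔATG (-3.07, 3.4e-13). By day 5 it was at 187 and 197 CPM in KO and 197 and 189 CPM in ΔATG, and the difference was 0.01.

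Other endoderm genes went the other way or gave no call over the 5 days. FOXA2, a pioneer factor of gut endoderm, was higher in ΔATG on day 1 (24.2 and 23.4 CPM against 14.9 and 11.1 CPM, 0.88, adjusted p = 3.6e-05) and not called later. FOXA1, its relative, was higher at day 5 (43.5 and 44.4 CPM against 30.1 and 26.4 CPM), and over all days by 0.46 ± 0.15 (0.024), a call lost without the second ΔATG library of day 1 (0.36, 0.32). CXCR4, the chemokine receptor used to sort endoderm, was higher on day 2 alone (0.56, 0.00037) and gave -0.02 ± 0.11 over all days (adjusted p = 1). HHEX, a factor of the anterior endoderm and liver bud, was lower on day 1 (-0.79) and 0.10 ± 0.06 over all days (0.3). KIT, a receptor kinase on endoderm and stem cells, gave 0.11 ± 0.06 (0.21), and was called with the replicate block (0.11, 0.011). Of 26 tested genes of the gut tube and liver bud, 5 were higher and 0 lower.

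**Figure D2:**
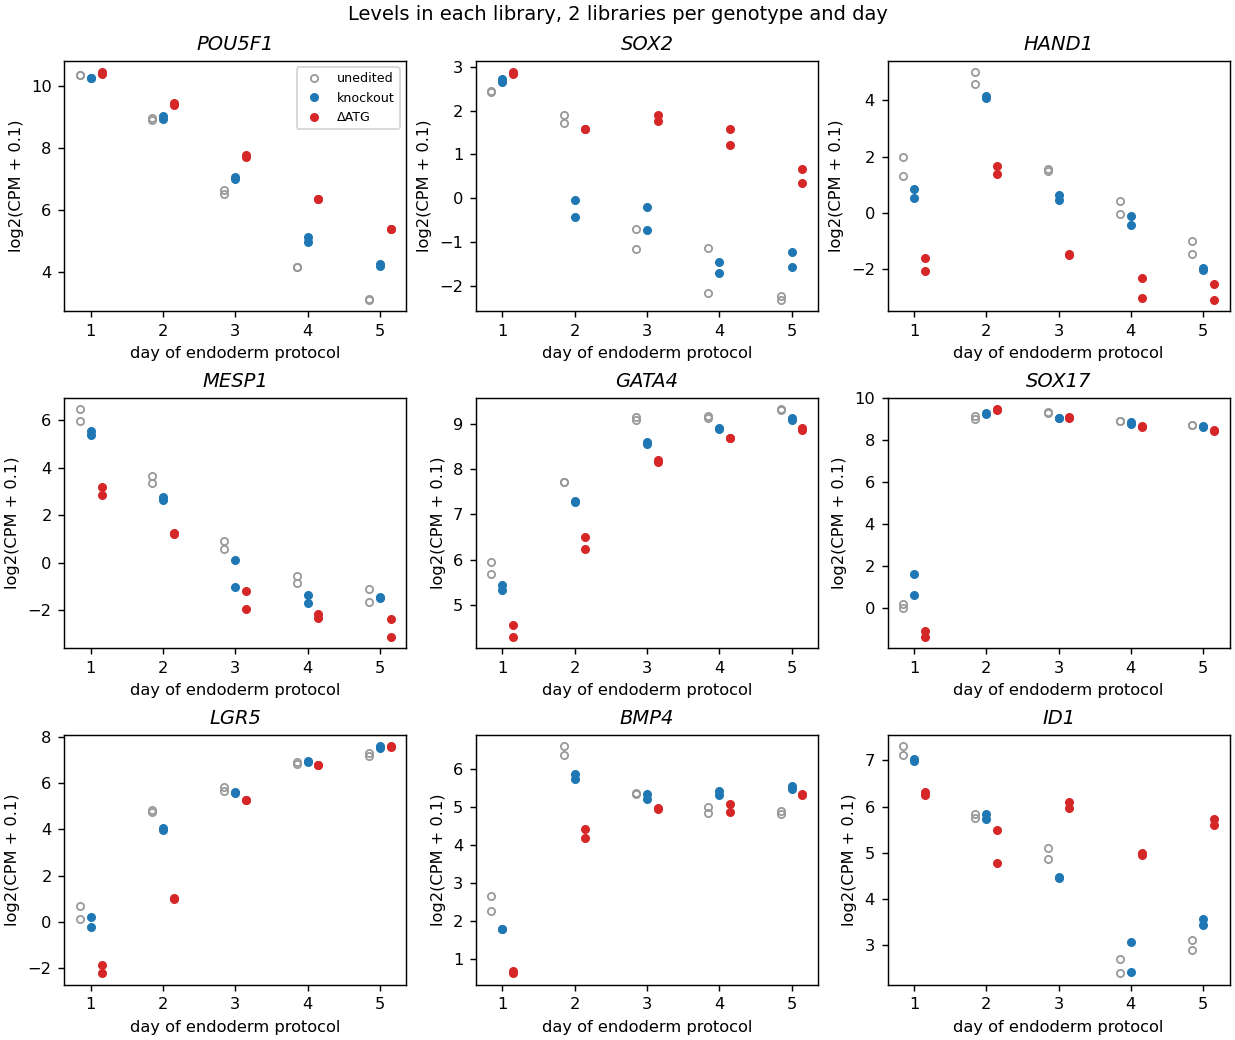
Level of 9 genes in each library as log2 of CPM plus 0.1 against the day of the endoderm protocol, with open grey circles for WT, blue for KO and red for ΔATG, 2 libraries per group. POU5F1 and SOX2 stay higher in ΔATG, HAND1, MESP1 and GATA4 lie lower, SOX17 and LGR5 differ early and meet later, BMP4 lies lower on days 1 and 2, and ID1 crosses from lower to higher between days 2 and 3.

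Nodal and Activin act through receptors that switch on SMAD2 and SMAD3, which enter the nucleus with SMAD4. Of 24 genes of this pathway, 7 were lower in ΔATG and 3 higher. The ligand NODAL was higher on day 2 (226 and 220 CPM against 167 and 160 CPM, 0.44, adjusted p = 0.021) and lower on day 3 (319 and 308 CPM against 420 and 418 CPM, -0.42, 0.023), with no difference called over all days (-0.12 ± 0.06, 0.15), though the replicate block (-0.12, 0.0065) and limma voom (-0.12, 0.014) called it. The effector SMAD3 stood at 83.8 and 94.5 CPM in KO and at 45 and 46.9 CPM in ΔATG on day 3, and was lower by -0.57 ± 0.06 over all days (1.3e-10). SMAD2 was lower by -0.37 ± 0.04 (3.7e-12) and SMAD4 by -0.19 ± 0.07 (0.029). The SMAD4 call was lost when any of 7 libraries was left out (adjusted p = 0.053 to 0.1). The feedback inhibitors split, as read on different days. LEFTY1 was higher on day 1, when its level was lowest (49.9 and 48.5 CPM against 18 and 21.9 CPM, 1.30, 8.4e-09). Its highest library held 3574 CPM in ΔATG and 4230 CPM in KO. The DESeq2 Wald test did not call LEFTY1 over all days (0.22, 0.11). LEFTY2 was lower on day 3 (2764 and 2704 CPM against 5484 and 5011 CPM, -0.94, 1.2e-07). FST, follistatin, which binds Activin, was lower on each day, with 173 and 158 CPM in KO and 103 and 98.9 CPM in ΔATG on day 5 (-0.88 ± 0.06 over all days, 7.1e-17).

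The calls in the BMP pathway changed during the protocol. Of its 28 genes, 6 were higher and 9 lower over the 5 days. By day, 10 were lower and 0 higher on day 1 and again on day 2, beside 3.11% and 2.42% of all genes on day 2, while on day 5 8 were higher and 4 lower, beside 3.16% and 3.91% of all genes. Among the ligands, BMP4 stood at 57.7 and 53.2 CPM in KO on day 2 and at 21.3 and 18 CPM in ΔATG. On day 5 it stood at 44.2 and 46.6 CPM and at 39.2 and 40 CPM, a gap that was no longer called (-0.20, adjusted p = 0.52). BMP2 was likewise low on day 1, at 37.2 and 53.8 CPM against 113 and 131 CPM in KO (-1.42, 3.7e-10). Over all days BMP4 was at -0.72 ± 0.08 (1e-10) and BMP2 at -0.64 ± 0.06 (2.1e-11).

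ID1, a direct target of BMP and an inhibitor of differentiation factors, changed direction during the protocol. KO libraries held 131 and 127 CPM on day 1, then 53.4 and 57.5, 22 and 22.2, 8.34 and 5.27, and 10.8 and 11.7. ΔATG libraries held 79.6 and 76.2 CPM on day 1, then 27.2 and 45, 63 and 68.4, 31.1 and 31.7, and 48.6 and 53.2. ΔATG was below KO on days 1 and 2 and above it on days 3 to 5, without overlap, and the day mattered for the difference (adjusted p = 2.5e-19). The daily differences ran -0.73, -0.62, 1.57, 2.22 and 2.18, all called, and WT followed KO, at 7.33 and 8.6 CPM on day 5. ID3 was higher on days 3 to 5, with 15.4 and 14.5 CPM in KO and 44.3 and 48.4 CPM in ΔATG on day 5 (1.64, 1.3e-08). ID4 and ID2 were higher on day 5 by 1.11 and 1.03. GATA3, a factor of amnion and trophoblast that BMP also drives, went from -2.02 on day 1 to 0.82 on day 5. The 7 markers of amnion and trophoblast, of which TFAP2B, VTCN1 and CGA were under 1 CPM in each library, summed to 49.2 and 49.4 CPM in KO and 81.1 and 89.1 CPM in ΔATG on day 5. GATA3 is 1 of the 7 and made up most of these sums, with 47.5 CPM in its highest KO library and 87.8 CPM in its highest ΔATG library. Over the 5 days 0 of the 6 tested markers were called higher and 2 lower. The part of such cells in the result was not tested.

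Several other genes of the pathway were lower over the 5 days. MSX2, a target in early mesoderm, was lower by -0.72 ± 0.11 over all days (adjusted p = 1.5e-06). The extracellular inhibitor NOG was lower and stood at 12.5 and 11.4 CPM in KO and 3.67 and 2.4 CPM in ΔATG on day 2. CHRD, another such inhibitor, was higher by 0.64 ± 0.12 (5.4e-05), with 1.84 and 1.79 CPM in KO and 3.77 and 3.99 CPM in ΔATG on day 5.

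Of 41 Wnt genes, 10 were lower and 5 higher. WNT4, a ligand, stood at 6.06 and 6.59 CPM in KO and 2.46 and 2.37 CPM in ΔATG on day 5 (-1.15 ± 0.18, adjusted p = 1.3e-06). NOTUM, an enzyme that inactivates Wnt and is itself a target, was lower on each day (-0.83 ± 0.06, 4.9e-16), with 29.1 and 28.3 CPM against 13.1 and 11.9 CPM on day 1. The secreted inhibitor SFRP2 was shut down less in ΔATG, where 2.49 and 2.76 CPM remained on day 5 against 0.571 and 0.552 CPM (1.03 ± 0.06, 2.4e-20). SFRP5, a relative, was higher by 0.88 ± 0.16. AXIN2, a general target of the pathway, moved little (-0.17).

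Of 27 FGF and ERK genes, 7 were lower and 4 higher. FGF4, a ligand of stem cells, was higher on day 2 (20.4 and 20.3 CPM against 7.44 and 7.31 CPM, 1.46, adjusted p = 1e-08), and FGF19 by 0.66 ± 0.14 over all days. FGF17, a ligand of streak and endoderm, was lower on day 1 (34.8 and 46.3 CPM against 98.5 and 120 CPM, -1.43) and not called later. Of 21 Notch genes, 5 were higher and 4 lower. HES1, the main target, was higher on days 2 to 4 (16.9 and 16.1 CPM against 9.13 and 8.88 CPM on day 2) and by 0.62 ± 0.08 over all days. The ligand DLL3 was lower by -0.75 ± 0.08 and the target HES4 by -0.77 ± 0.14. Among 19 genes of the retinoic acid pathway, 6 were higher and 4 lower, led by ALDH1A1, which makes the acid (1.01 ± 0.11), and CYP26A1, which degrades it (-0.40).

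Targets of YAP, the coactivator that responds to cell shape and tension through TEAD factors, were lower together. Of 18 tested, 11 were lower in ΔATG and 0 higher over the 5 days, and the median was -0.31. ANKRD1, a muscle ankyrin and a sensitive target, rose in KO from 0.36 and 0.412 CPM on day 1 through 1.14 and 1, 11.2 and 9.86, and 57.8 and 65.1, to 70.8 and 60.9 CPM on day 5. In ΔATG it rose from 0 and 0.0176 CPM through 0.824 and 1.16, 6.69 and 7.32, and 24.8 and 26.2, to 37.6 and 42.2 CPM. From day 3 the ΔATG libraries lay under the KO libraries, and WT was highest, with 90.5 and 98.4 CPM at the end. The fold change was -1.54 ± 0.21 (adjusted p = 1.8e-07) with the near-zero values of day 1 included, and -0.72 on day 5 (6.1e-05).

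MYOF, a membrane repair protein, stood at 322 and 319 CPM in KO and 214 and 192 CPM in ΔATG on day 5 (-0.66 ± 0.07, adjusted p = 5.9e-10). AMOTL2, which feeds back on YAP, was lower on each day, with 137 and 138 CPM against 97.6 and 89.2 CPM on day 5 (-0.61 ± 0.07, 4.9e-10). CCN2 and CCN1, secreted matrix proteins, were lower on days 4 and 5, and CCN2 on day 1 as well. CCN2 stood at 53.2 and 49.7 CPM in KO and 34.8 and 34.7 CPM in ΔATG on day 5 (-0.33 ± 0.08 over all days, 0.0018), and CCN1 gave -0.34 ± 0.07 (0.00053). AJUBA, NUAK2, PTPN14, AMOTL1, TEAD1 and LATS2 were lower by -0.58 to -0.20, TEAD1 with a call that leaving out any of 7 libraries ended (adjusted p = 0.05 to 0.083).

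TEAD factors bind the letters GGAATG, so the start of CCN2 was read for them. The window of 250 bases before the RefSeq start of CCN2, on the minus strand at chr6:131951373-131951622 of GRCh38.p14, is printed from 5′ to 3′ with each match in capitals, because the gene is a textbook target of the factors whose targets were lower together.
CCN2: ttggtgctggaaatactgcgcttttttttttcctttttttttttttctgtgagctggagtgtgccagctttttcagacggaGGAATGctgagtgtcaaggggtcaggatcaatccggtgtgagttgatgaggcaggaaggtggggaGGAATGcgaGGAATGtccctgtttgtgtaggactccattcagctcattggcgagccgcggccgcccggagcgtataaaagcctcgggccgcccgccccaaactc
It holds 3 matches on the strand shown. Searched as GGAATG or its reverse complement CATTCC, 8 of the 13 listed genes with a promoter in the table had a match in any of their promoters. Of all 35116 promoters, counted singly and not by gene, 4175 had a match (11.9%), so these shares are not in the same unit. AXL and TGFB2 were among the listed genes with a match and were not called over the 5 days. ANKRD1 had 2. A match is a description of the letters, not a measured binding site.

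Immediate early genes, which respond within minutes to growth factors and stress, were also lower: 11 of 24 lower and 0 higher, median -0.25. JUN, a subunit of the AP-1 factor, stood at 133 and 131 CPM in KO and 89.1 and 83.4 CPM in ΔATG on day 5 (-0.51 ± 0.05 over all days, adjusted p = 5.8e-11). KLF6 (-0.55 ± 0.08), FOSL2 (-0.71 ± 0.13) and MYC (-0.41 ± 0.08) were lower as well. CCN1 belongs to both lists.

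**Figure D3:**
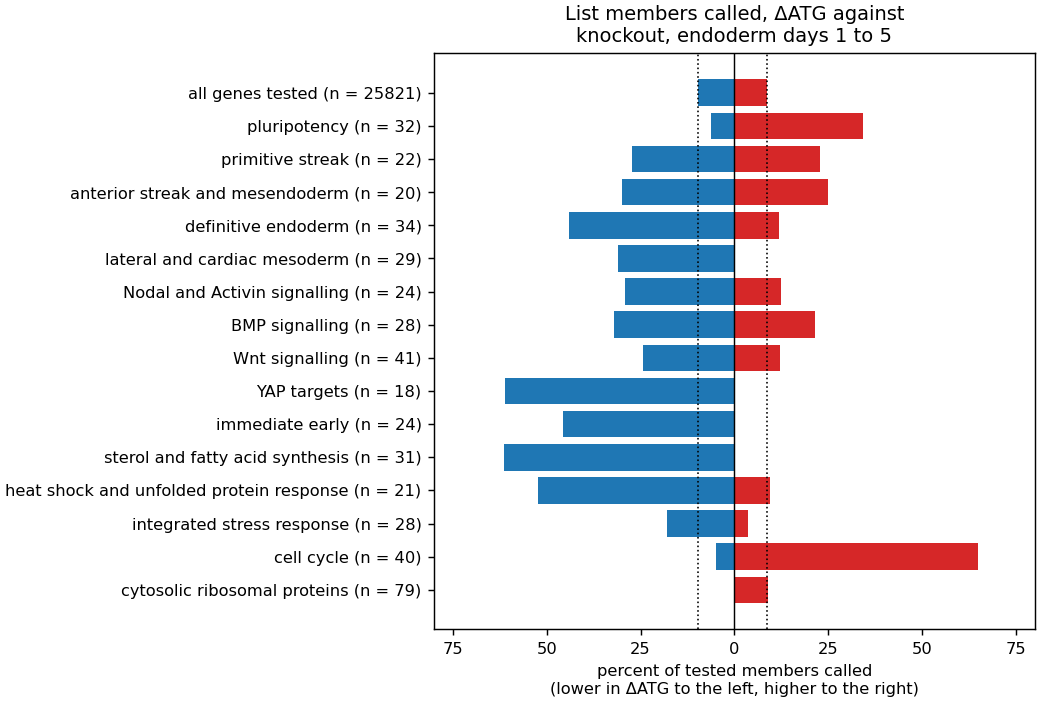
Share of the tested members of each gene list called over endoderm days 1 to 5, lower in ΔATG to the left and higher to the right. Dotted lines mark the shares of all 25821 genes, 9.65% lower and 8.71% higher; YAP targets and sterol synthesis lie far to the left and cell cycle genes far to the right.

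Cell cycle genes stood higher in ΔATG in the middle of the protocol. Of 40 tested, 26 were higher and 2 lower, with a median of 0.18. By day the counts of higher members were 0, 1, 24, 19 and 11, beside 1.94%, 2.42%, 4.19%, 2.69% and 3.16% of all genes. TOP2A, the topoisomerase of dividing cells, dropped in KO from 421 and 456 CPM on day 2 to 82.7 and 93.9 CPM on day 3, and in ΔATG from 554 and 469 to 141 and 157 CPM. It was 0.76 higher in ΔATG on day 3 (adjusted p = 2.8e-08) and at -0.04 on day 5. CDK1, the mitotic kinase, stood at 19.4 and 21.6 CPM in KO and 41.2 and 47.2 CPM in ΔATG on day 3, and CENPF, a kinetochore protein, at 43.6 and 75.3 CPM and 111 and 107 CPM. The members that were lower were the D cyclins CCND1 (-0.29 ± 0.08) and CCND3 (-0.31). Against WT, KO had 27 of the 40 lower and 1 higher, beside 8.04% and 6.76% of all genes, and ΔATG 9 lower and 6 higher, beside 17.2% and 16.6%. These 2 comparisons share the WT libraries.

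Genes of sterol and fatty acid synthesis were lower by small amounts. Of 31 genes, 19 were lower and 0 higher, and the lowest value was -0.36. LSS, which closes the sterol ring, stood at 173 and 188 CPM in KO and 116 and 117 CPM in ΔATG on day 3 (-0.36 ± 0.04 over all days, adjusted p = 2e-09). TMEM97, a sterol-regulated membrane protein, gave -0.35 ± 0.05, and HMGCS1, an early enzyme of the pathway, gave -0.31 ± 0.09. Relative to WT both lines were lower, KO in 14 of the 31 and ΔATG in 27, beside 8.04% and 17.2% of all genes.

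Stress genes were lower more often than higher. Of 21 heat shock and unfolded protein genes, 11 were lower and 2 higher, with HERPUD1, a factor of protein disposal from the endoplasmic reticulum, at 90.3 and 76.9 CPM in KO and 29.8 and 31 CPM in ΔATG on day 3 (-1.46, adjusted p = 1.8e-06). BAG3, a cochaperone, was lower by -0.32 ± 0.04. Of 28 genes of the integrated stress response, 5 were lower and 1 higher (14 lower in fits to the endoderm libraries alone), whereas at day 0 12 had been higher and 0 lower, beside 2.15% and 1.91% of all genes. TRIB3, one of its targets, went from 1.29 ± 0.26 at day 0 to -0.51 ± 0.13 in endoderm. Of 23 glycolysis genes, 5 were higher, among them ENO2 (0.71 ± 0.06, 2.9e-15), and 2 lower, while at day 0 10 were lower and 0 higher. The hypoxia list was balanced, with 3 higher and 3 lower of 21. The 50 nuclear genes of the respiratory chain had 6 lower and 2 higher, the 13 mitochondrial transcripts had no call, and of 79 cytosolic ribosomal proteins 7 were higher, by at most 0.15, a count that came to 48 in a fit to the 20 compared libraries alone.

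Among genes of growth arrest and cell death, CDKN1A, an inhibitor of the cell cycle kinases, was not called over all days (-0.34 ± 0.16, adjusted p = 0.13) but was lower on day 5 (-0.84, 0.044), and the DESeq2 Wald test called it over all days (-0.35, 0.014). GDF15, a cytokine made under stress, gave -0.47 ± 0.17 (0.04), a call that leaving out any of 11 libraries ended (adjusted p = 0.05 to 0.15), and PLK2, a polo-like kinase, -0.46 ± 0.08 (3.3e-05). PMAIP1, which promotes cell death, was higher (0.58 ± 0.11, 3.2e-05). Of 27 regulators of apoptosis, 9 were lower and 4 higher. CFLAR, which blocks death receptors, stood at 22.3 and 23.2 CPM in KO and 8.99 and 8.89 CPM in ΔATG on day 1 (-0.76 ± 0.07 over all days, 1.7e-12).

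Several genes of cell shape were lower. TAGLN, an actin-binding protein of contractile cells, rose to 1398 and 1312 CPM on day 5 in KO and to 594 and 529 CPM in ΔATG (-0.99 ± 0.06, adjusted p = 5.2e-20). VIM, the filament protein of mesenchymal cells, ended at 244 and 210 CPM in KO and 111 and 112 CPM in ΔATG (-0.72 ± 0.04, 7.5e-20). Of the 22 genes of the epithelial-mesenchymal transition, 8 were lower and 2 higher. ZEB2, a repressor in that transition, was called lower (-2.11), and 1 KO library stood apart: on day 5 it held 8.75 CPM against 0.0789 CPM in its partner. Without it the difference was -0.97 (adjusted p = 0.18). The same library held 4 CPM of summed endothelial and blood markers against 0.355 CPM in its partner, and the part of such cells in the result was not tested. Of 28 integrins and laminins, 10 were lower and 7 higher, among them ITGA4 (-0.76 ± 0.10) and NID2, a basement membrane linker, which was higher (1.51 ± 0.15, 7.4e-12). Of 38 guidance genes, 14 were lower and 9 higher. NRP1, a receptor of semaphorins and VEGF, stood at 29.6 and 30.8 CPM in KO and 11.7 and 12.2 CPM in ΔATG on day 2 (-1.02 ± 0.12, 4.4e-09). Of 25 claudins and junction genes, 5 were higher and 4 lower, CLDN4 by 0.61 ± 0.07. Of 15 stromal matrix genes, 5 were lower and 4 higher. The remaining lists are given beside 8.71% of all genes higher and 9.65% lower, and some lie near these shares and are not read as a result. Anterior streak and mesendoderm had 5 higher and 6 lower of 20, neuroectoderm 5 and 4 of 32, amnion and trophoblast 2 and 3 of 23, and endothelium and blood 1 and 3 of 20. Imprinted genes had 2 higher and 7 lower of 25, sirtuins and histone deacetylases 2 and 3 of 18, chromosome 20q11 5 and 3 of 19, and HOX clusters 0 and 2 of 23.

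Among the 10 lowest called genes that kept their sign on each day and had a mean log2 CPM of at least 1 were ANKRD1, CXCL11 and the following. PAPLN, a proteoglycan-like protein, stood at 11.3 and 9.9 CPM in KO and 1.4 and 0.976 CPM in ΔATG on day 2 (-1.91 ± 0.11, adjusted p = 9.9e-20). NPPB, a natriuretic peptide, rose to 495 and 439 CPM on day 5 in KO and 143 and 138 CPM in ΔATG (-1.84 ± 0.26, 1.1e-07). S100A6, a calcium-binding protein, gave -1.35 ± 0.09 and POTEC -1.39 ± 0.24. IGFBP5, which binds insulin-like growth factors, is among the genes whose difference changed most with the day. It rose to 4093 and 3867 CPM in KO and 1328 and 1024 CPM in ΔATG on day 5 (-1.76, 1.4e-09). Among the 10 highest genes by the same rule were NID2 and PTPRZ1. PTPRZ1, a receptor phosphatase of neural progenitors, stood at 3.1 and 3.86 CPM in KO and 14.3 and 13.2 CPM in ΔATG on day 5 (1.22 ± 0.08, 7.9e-19). ADAMTS18, a matrix protease (1.38 ± 0.18), NEGR1, a neural adhesion protein (1.40 ± 0.23), and CAVIN1, a coat protein of caveolae (1.23 ± 0.15), were also higher. On day 5 PTPRZ1 and CAVIN1 stood below their level of day 1 in both lines. A Y-linked gene that the rule also names is left out.

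Part of the difference between the lines was present at day 0 and in all 3 protocols. At day 0 and over days 1 to 5 of each of the 3 protocols, 72 genes were called with the same sign, 29 higher and 43 lower, and 7 were called throughout with differing signs. CHCHD2, CEBPZOS, ZNF667 and BTF3 are described from this set after their values were seen, the others by rule. CHCHD2, a small protein of the mitochondrial intermembrane space and nucleus, lay between 25.7 and 43.4 CPM in the 10 KO libraries and between 59.4 and 112 CPM in WT. In ΔATG it was listed at 0 in 7 of 10 libraries and did not pass 0.0323 CPM. CEBPZOS lay between 11.9 and 19.7 CPM in KO and between 0.048 and 1.28 CPM in ΔATG (-6.43 ± 0.12, adjusted p = 4.2e-44). It shares its locus with CEBPZ on the other strand, which was higher (0.30 ± 0.05), and whether the counting used the strand is not given in the sources used here.

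In other genes the KO line lay further from WT than ΔATG did. CXCL11, a chemokine, lay between 6.44 and 11.8 CPM in KO, between 0.189 and 1.31 CPM in ΔATG, and between 0.183 and 0.689 CPM in WT (-4.03 ± 0.11 between the edited lines, adjusted p = 5.1e-36). ZNF667, a zinc finger gene, did not pass 0.0986 CPM in KO and lay between 9.68 and 12.7 CPM in ΔATG and 8.57 and 12.8 CPM in WT. ZNF431 (1.11 ± 0.05) and ZNF678 (1.15 ± 0.11), of the same family, were at about the WT level in ΔATG (0.09 and 0.11 against WT) and lower in KO (-1.03 and -1.03 against WT). NECTIN3-AS1, an antisense RNA, was higher in KO than in WT (1.61 ± 0.08) and -2.06 ± 0.08 lower in ΔATG than in KO. Its median over the 10 libraries of a line was 23.7 CPM in KO, 8.53 CPM in WT and 5.09 CPM in ΔATG. Zinc finger genes have close relatives among which reads can be split, so these values carry that uncertainty.

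BTF3, a subunit that binds nascent proteins at the ribosome, was among the most even differences. It lay between 327 and 396 CPM in KO and between 203 and 222 CPM in ΔATG, with WT between 339 and 420 CPM (-0.73 ± 0.02, adjusted p = 4.1e-35). CFLAR belongs to this set too. PSMD5, a chaperone of proteasome assembly (0.83 ± 0.07), and CDIN1 (1.02 ± 0.09) were higher. PCDHA11, a clustered protocadherin, was lower (-2.29 ± 0.22, 5.9e-12), and 9 of 52 tested members of those clusters were lower and 0 higher. These genes share exons, so their counts are uncertain. The imprinted gene H19 was low in both lines and nearly absent in ΔATG, at 1.4 and 1.17 CPM against 0.135 and 0.0704 CPM on day 1. Its call over all days (-4.66) was lost without the first KO library of day 4 (-4.06, adjusted p = 0.12).

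**Figure D4:**
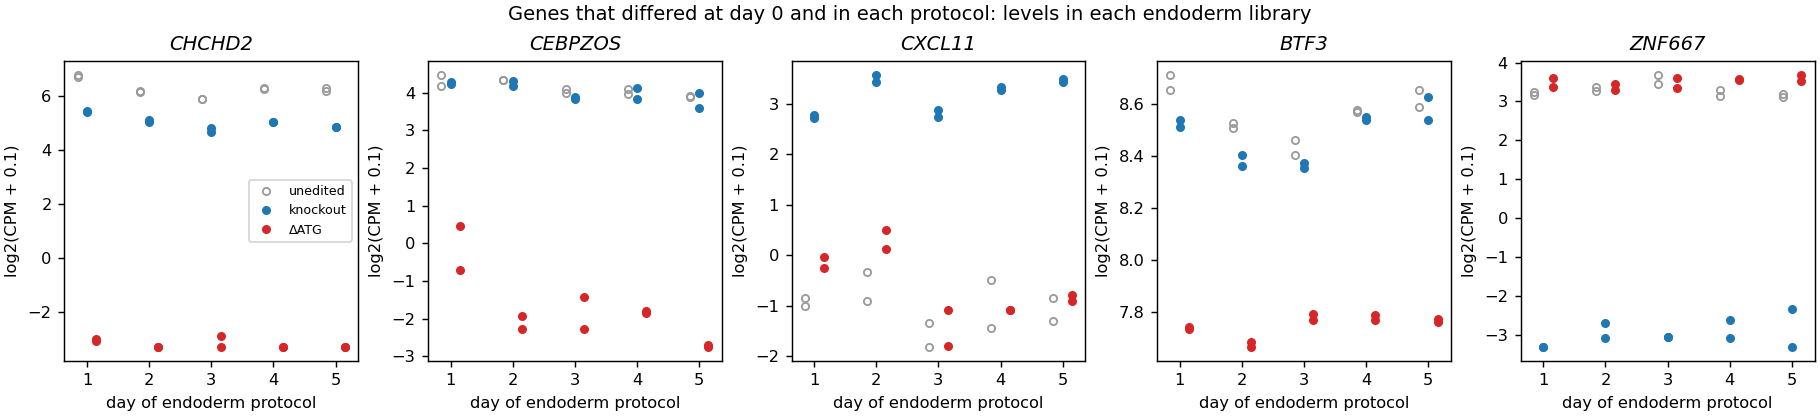
Level of 5 genes in each endoderm library as log2 of CPM plus 0.1 against day, with open grey circles for WT, blue for KO and red for ΔATG. CHCHD2, CEBPZOS and BTF3 are lowest in ΔATG, while CXCL11 is high and ZNF667 low in KO alone.

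The same lines gave partly opposite differences in the BMP4 protocol. There ΔATG and KO differed in 3508 genes (13.6%), and 5160 genes (20%) differed between the protocols in the size of the difference. Of the 4741 genes called in endoderm, 389 were called with the same sign in BMP4 (8.21% of the endoderm calls and 11.1% of the BMP4 calls), and 846 with the opposite sign (17.8% and 24.1%). Of the latter, 613 were lower in ΔATG in endoderm and higher in BMP4, and 233 the reverse. The BMP4 calls themselves leaned higher, with 8.67% of all genes higher and 4.92% lower. In endoderm 8.71% were higher and 9.65% lower. These shares alone would make the split uneven, and anything beyond that was not tested. These 2 comparisons share no library. With SMADi, 275 genes were called (1.07%, with 0.593% higher and 0.472% lower). Of these, 133 were called with the same sign in endoderm (2.81% of the endoderm calls and 48.4% of the SMADi calls). Another 36 had the opposite sign (0.759% and 13.1%). At day 0, 1050 were called (4.07%). Of these, 213 had the same sign (4.49% of the endoderm calls and 20.3% of the day 0 calls) and 175 the opposite (3.69% and 16.7%). The sizes differed from endoderm in 2280 genes (8.83%) for SMADi, where endoderm had the higher difference in 1013 (3.92%) and the lower in 1267 (4.91%). For day 0 they differed in 1938 (7.51%), 945 higher (3.66%) and 993 lower (3.85%).

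Genes of mesoderm turned between the protocols. HAND1 was -2.67 ± 0.39 in endoderm and 1.25 ± 0.09 in BMP4, a difference between protocols of -3.92 ± 0.44 (adjusted p = 2.5e-10). BMP4 itself went from -0.72 to 0.88, GATA6 from -0.25 to 1.03, and MESP1 from -1.78 to 1.01. By list, the BMP pathway had 22 of 28 genes higher and 0 lower in BMP4 medium, lateral and cardiac mesoderm 21 of 29 higher and 1 lower, primitive streak 16 of 22 higher and 0 lower, and definitive endoderm 14 of 34 higher and 0 lower, beside 8.67% and 4.92% of all genes. Sterol synthesis turned as well, with 22 of 31 higher and 0 lower in BMP4 against 0 higher and 19 lower in endoderm. The sterol list had 26 of 31 genes whose difference was lower in endoderm than in BMP4, beside 11.6% of all genes.

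The stem cell factors differed between the protocols in the other direction. Of the 32 pluripotency genes, 0 were higher and 7 lower in BMP4, against 11 and 2 in endoderm. The difference itself was higher in endoderm than in BMP4 in 14 and lower in 2, beside 8.34% and 11.6% of all genes. SOX2 was 2.05 higher in endoderm and -0.26 ± 0.05 lower in BMP4 (difference 2.30 ± 0.13, adjusted p = 2.4e-20), and POU5F1 was 0.76 against -0.03 ± 0.04. BTF3 was -0.73 in endoderm and -0.83 in BMP4.

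**Figure D5:**
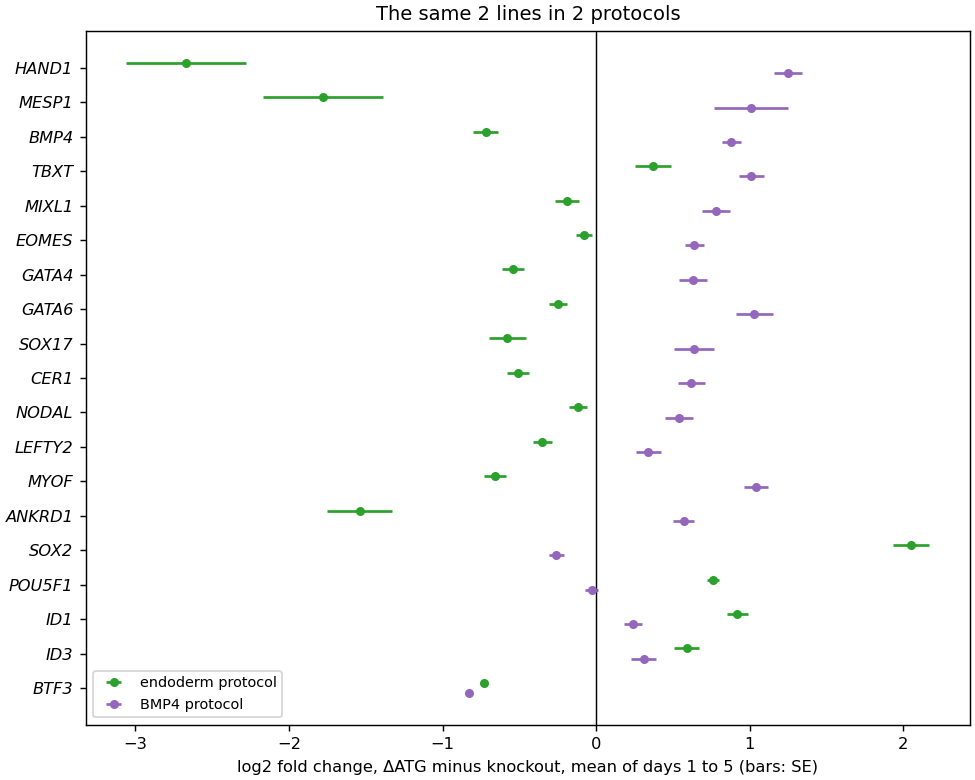
Log2 fold change, ΔATG minus KO, of 19 genes averaged over days 1 to 5, with green points for the endoderm protocol, purple points for the BMP4 protocol and bars for the standard error. HAND1 lies at -2.67 in endoderm and 1.25 in BMP4, while BTF3 lies at -0.73 and -0.83.

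By the rule for genes that differed in endoderm from both other protocols, the lowest were NPPB, PAPLN, NRP1, CLSTN2 and PDZRN4. CLSTN2, a synaptic calcium-binding membrane protein, stood at 28.8 and 27.1 CPM in KO and 9.38 and 7.6 CPM in ΔATG on day 5 (-1.49 ± 0.15 in endoderm, 0.85 ± 0.17 in BMP4). PDZRN4, a protein with a ring finger, was lower in endoderm (-1.15 ± 0.13) and gave 0.28 ± 0.43 in BMP4. NID2 was the highest gene of this kind with a symbol, at 1.51 ± 0.15 in endoderm and 0.20 ± 0.07 in BMP4.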

How the data were processed

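The authors deposited estimated counts for 62703 genes in 120 libraries of polyA RNA, scaled for transcript length per the name of the deposited table, on GRCh38 per the submitters' processing notes. The sources used here name no aligner, quantifier or annotation release, and no use of strand in counting, so overlapping and antisense genes are uncertain. Gene positions are from GENCODE and the promoter from RefSeq.

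Counts were rounded and filtered with filterByExpr, which left 25821 genes. The 96 libraries of 48 groups were scaled by TMM and fitted together in edgeR 4.0.16 (R 4.3.3), with 48 residual degrees of freedom, and genes were called by the quasi-likelihood F test at a Benjamini-Hochberg adjusted p under 0.05. Standard errors are the log2 fold change over the root of F. The members and the 38 gene lists were chosen with earlier results of these data known.

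The rule named genes of extreme difference over the 5 days, between days 5 and 1, between protocols or in every protocol (mean log2 CPM of at least 1), up to 2 called genes at each end of a list, and a set of lineage genes. Others were chosen after their values were seen, and a Y-linked gene is left out. Some genes are not reported here. The fit was tested on simulated data. Replicates of each group differed by more than counting noise. Alternatives used limma 3.58.1 (voom), DESeq2 1.42.0, other filters, subsets of libraries, a replicate block and leaving out each library.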

Additional observations from a re-analysis of the deposited data

Results flagged for a closer look

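By edgeR's quasi-likelihood F test of the difference itself, with Benjamini-Hochberg adjustment, the difference between ΔATG and KO depended on the day in 2047 genes. It differed between endoderm and day 0 in 1938 genes, between endoderm and BMP4 in 5160, and between endoderm and SMADi in 2280. The genes below are those with the widest such changes under the naming rule, given as log2 values.

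From day 1 to day 5 the difference moved by 4.22 in LINC02593. It stood at 8.75 and 9.02 CPM in KO and 2.4 and 2.32 CPM in ΔATG on day 1, and at 0.918 and 0.828 CPM in KO and 3.98 and 4.69 CPM in ΔATG on day 5, so the lines changed places. IGFBP5, a binding protein of insulin-like growth factors, moved by -2.86, from under 1 CPM in both lines on day 1 to 4093 and 3867 CPM in KO and 1328 and 1024 CPM in ΔATG on day 5. IFI30, a lysosomal thiol reductase, moved by 8.12. Both KO libraries of day 5 held 0.0204 and 0.0197 CPM, both ΔATG libraries 7.11 and 6.35 CPM, and WT 0.0399 and 0 CPM, while on day 4 KO had held 6.15 and 5.48 CPM. Values near 0 in both libraries of a group make the 8.12 uncertain, and an effect of how reads were assigned to the gene was not tested.

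In the others at least 1 library of day 1 is listed at 0 or lies under 0.2 CPM, so the fitted size of the change is uncertain. ANKRD1 moved by 4.27, ENSG00000241358 by 4.62 and ENSG00000286468 by 5.59. PAX6 moved by -3.42, UMODL1 by -3.53, ADORA2A by -3.86 and ADARB2 by -3.09. PAX6, a factor of eye and brain, held 51.5 and 52.6 CPM in KO and 44.2 and 47.5 CPM in ΔATG on day 5, when it was not called. ENSG00000241358 was called on day 3 and on no other single day, with 37.5 and 37.6 CPM in KO and 100 and 96.6 CPM in ΔATG. ADORA2A, an adenosine receptor, held 0.514 and 0 CPM in KO and 3.79 and 5.16 CPM in ΔATG on day 1.

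Between endoderm and BMP4 the difference was higher in endoderm by 1.31 for NID2, a basement membrane protein. It was lower for NRP1, a semaphorin and VEGF coreceptor (-1.61), PAPLN (-1.58), NPPB, a natriuretic peptide (-1.8), CLSTN2 (-2.34) and PDZRN4 (-1.42). It was higher by 1.94 for ENSG00000254553, 2.92 for ENSG00000260772, 3.92 for ENSG00000267303 and 2.31 for ENSG00000267520. These 4 genes are listed at 0 in both KO libraries of 1 day, so their fitted changes are no bound, and for them too an effect of read assignment was not tested. That day is day 4 for ENSG00000254553 (2.07 and 1.57 CPM in ΔATG), day 2 for ENSG00000260772 (3.56 and 3.27 CPM in ΔATG, with WT also at 0), day 3 for ENSG00000267303 (9.93 and 8.26 CPM) and day 2 for ENSG00000267520 (3.19 and 0 CPM). Without the first ΔATG library of day 2, ENSG00000267520 was no longer called over the 5 days (0.36, adjusted p = 1).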

How the results depend on the processing

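Each fit was repeated with other settings. Of 4058 repeated fold changes for 140 genes named, 3968 kept their direction and side of the threshold, 67 lost their call, 23 gained one and 0 reversed. The count over the 5 days stayed within 1.5 times its value in each alternative, from 3916 without a filter on low counts to 6637 with the replicate block. A fit to the 30 endoderm libraries alone gave more daily calls: 1818, 2418, 4336, 2835 and 3185 on days 1 to 5, and 4231 genes whose difference depended on the day. A fit to the 20 compared libraries gave 1757, 2209, 4028, 2641, 2947 and 3571. EOMES, MIXL1, NODAL, KIT and HHEX, which were not called as reported, were called in both of these fits, and MIXL1, NODAL and KIT also with the replicate block. The cause was not tested. With DESeq2's size factors, the share of called genes that were higher over the 5 days was 44.2%, against 47.5%.

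The library letters showed no clear pairing of KO with ΔATG: deviations of same-lettered libraries correlated between -0.134 and 0.028 over 5 pairs. Pairs with WT ran from -0.075 (ΔATG, day 2) to 0.162 (KO, day 4). With the replicate block, days 1 to 5 gave 1897, 2446, 4286, 2923 and 3273 genes, day dependence 4546, endoderm against day 0 3849 and against SMADi 3862.

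Leaving out 1 library at a time gave 378 to 1051 genes on day 1, 578 to 1413 on day 2, 956 to 2304 on day 3, 699 to 1705 on day 4 and 735 to 1797 on day 5. Day dependence came to between 1606 and 2040 genes, endoderm against day 0 to between 1708 and 2010, against BMP4 to between 4569 and 5185 and against SMADi to between 1885 and 2304. KO against WT came to between 3382 and 3856, and ΔATG against WT to between 8004 and 8725. The lone remaining library is then assumed to vary like the other groups. An older edgeR setting with trended dispersions was chosen after seeing the data and gave 4914 genes over the 5 days. DESeq2's Wald test was not run for day dependence, and the 30- and 20-library fits hold no other protocol.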
